A study of Mus musculus with 275 samples.

Results

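The potassium channel genes were taken as every probe on the array whose gene symbol starts with Kcn, with 1 gene left out. They came to 118 probes of 79 genes, among 25697 probes on the array, of which 23978 carried 1 gene symbol and together covered 16593 genes. Background was set on each array from 1341 probes for chemosensory receptors (odorant, vomeronasal and taste), and a probe counted as expressed in a genetic background when it exceeded their 95th percentile on 25% or more of the arrays. By that rule 74 channel probes of 58 genes were expressed in at least 1 background: 66 (F2), 69 (HS4) and 65 (HS-CC), and 62 in all 3. The other 44 probes were near the receptor probes and were left out of the comparisons.

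Potassium channels set the resting potential of a neuron, shape its action potentials and limit how often it fires. Each channel is built from pore-forming subunits and often from auxiliary subunits that change its gating or its place in the membrane. The medium spiny neurons that make up most of the striatum are known for strong inward rectifiers, which hold them silent at rest, and for fast A-type currents in their dendrites.

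The arrays measured RNA from the striatum of mice bred for their response to haloperidol, a blocker of the dopamine D2 receptor that makes mice hold a fixed posture, called catalepsy. In each background a High line came from breeding responsive mice together and a Low line from breeding non-responsive mice. F2 descends from the C57BL/6J and DBA/2J strains, HS4 from C57BL/6J, DBA/2J, BALB/cJ and LP/J, and HS-CC from the founder strains of the Collaborative Cross, so every group is a mixed stock rather than an inbred strain. There was 1 array per animal: 41 High and 42 Low in F2, and 48 High and 48 Low in each of HS4 and HS-CC, 275 in all. Age was not given in the labels. Each line is a single selection in its background, so the effect of selection cannot be told apart from drift, and the animals of a line are relatives.

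Values are on a log2 scale as deposited and were normalized within each background, so levels were not compared between backgrounds. In total 8 arrays stood far below the others in their mean correlation with the rest of their background and were left out, leaving 80 arrays (F2), 92 (HS4) and 95 (HS-CC). The sex written in the HS4 labels matched the level of 1 probe of the Y-linked gene Eif2s3y on 41 of 96 arrays, outlying arrays included. The HS4 groups are therefore the arrays labelled High and Low, and every HS4 direction rests on those labels. A Low array of HS-CC also stood apart, with a mean over the spiny neuron markers of 10.12 against 11.35 on the next lowest array. The called differences and some correlations with marker means are given with and without it. Correlations between pairs of probes include it, except where outlying arrays were removed repeatedly. Those between marker means include it throughout. Of the marker genes that define spiny neurons, 11 were expressed in every background, with group medians of the list mean between 12.04 and 12.57 on the log2 scale.

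Detection differed among families. All 5 Kcnab probes (auxiliary beta subunits of the Kcna channels), all 7 Kcnip probes (calcium-binding partners of the Kcnd channels) and all 4 Kcnc probes (fast delayed rectifiers) were expressed in every background. Of the 18 Kcnj probes, 9 were expressed in at least 1 background, of the 22 Kcnk probes 12, of the 10 Kcna probes 6, of the 5 Kcnn probes 2, of the 4 Kcnq probes 2, and of the 3 Kcnd probes only that of Kcnd2. In all, 12 probes were expressed in some backgrounds and not in others. These included the regulatory subunits Kcne1 and Kcne4 and the G-protein-gated channel Kcnj6, which passed in HS4 alone, and Kcnj14, which passed in F2 and HS-CC.

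**Figure D1:**
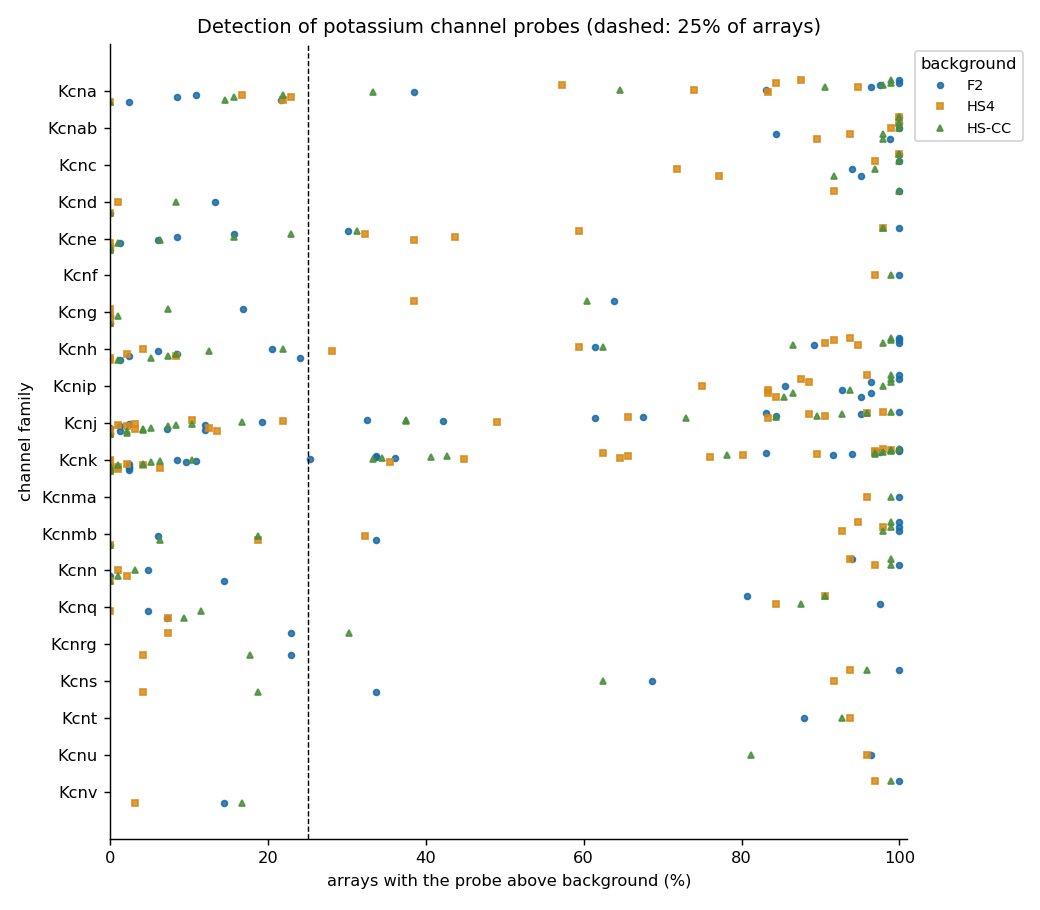
Share of arrays (%, x axis) on which each of the 118 potassium channel probes lay above background, by channel family (y axis) and genetic background (colour and symbol), over all 275 arrays. The dashed line marks the 25% needed to count as expressed; the 5 Kcnab probes sit far to its right, whereas 9 of the 18 Kcnj probes stay to its left in every background.

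The lines were then compared within each background with limma, with Benjamini-Hochberg adjustment over all expressed probes and a false discovery rate of 0.1. No channel probe was called in F2, where 1.43% of all 15300 expressed probes were called, nor in HS4, where 0.158% of 15219 were called. In HS-CC 3 of 65 channel probes were called (4.6%), against 4.54% of all 15119 expressed probes, so channel probes were called at about the rate of the array as a whole. The inward rectifiers Kcnj12 and Kcnj16 were lower in the High line, and the THIK-type leak channel Kcnk13 was higher. At an unadjusted p under 0.05 there were 3 of 66 channel probes in F2 (10.2% of all probes), 4 of 69 in HS4 (4.74% of all probes) and 8 of 65 in HS-CC (13.2% of all probes).

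All the estimated differences were small. The F2 differences ran from -0.11 to 0.17 on the log2 scale, those of HS4 from -0.16 to 0.16 and those of HS-CC from -0.18 to 0.11, so that no probe differed by more than 1.13-fold. The median standard error was 0.03, 0.04 and 0.03. In HS-CC 46 of the 65 probes were lower in the High line (70.8%, against 51.1% of all expressed probes), with a median difference of -0.01. In F2 29 of 66 (43.9%) and in HS4 28 of 69 (40.6%) were lower, against 50.7% and 51.0% of all probes. Other choices of arrays, normalization or covariates put 28 to 32 probes lower in F2, 28 to 44 in HS4 and 39 to 46 in HS-CC, so the HS4 balance turned with them. Of the 62 probes expressed in every background, 7 were higher in the High line in all 3, 5 were lower in all 3, and 50 changed sign between backgrounds. The same count over all expressed probes was not made, so no trait particular to the channels follows from it.

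**Figure D2:**
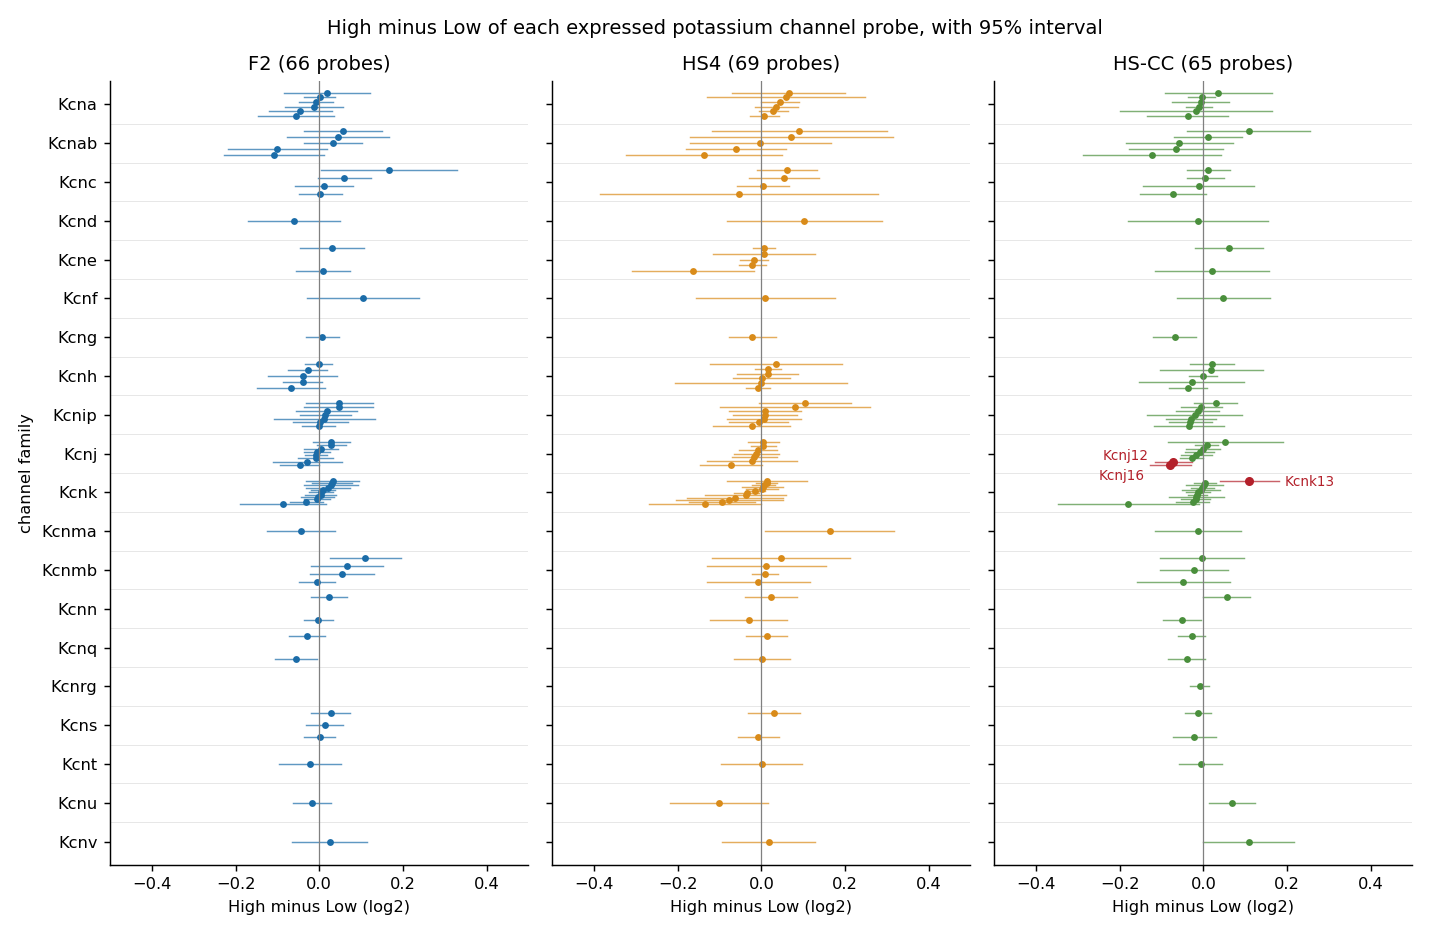
High minus Low (log2 scale, x axis) of every expressed potassium channel probe by family (y axis) in F2, HS4 and HS-CC; points are the limma estimates and lines their 95% intervals. The 3 probes called at a false discovery rate of 0.1, all in HS-CC, are in red and named: Kcnj12 and Kcnj16 to the left of 0 and Kcnk13 to the right.

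Among the inward rectifiers, Kcnj12, a strong rectifier of excitable cells, ranged in HS-CC from 9.22 through a median of 9.46 to 9.70 in the High line and from 9.18 through 9.54 to 9.77 in the Low line. The groups overlapped along nearly their whole range, with the centre of the Low arrays higher. High minus Low was -0.07 ± 0.02 (SE, n = 47 and 48; limma adjusted p = 0.0607). In F2 the difference was -0.01 and in HS4 0.01, and neither was called.

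Kcnj16, a rectifier that is known from glia and epithelia and pairs with other Kcnj subunits, ranged in HS-CC from 9.25 through 9.42 to 9.67 in the High line and from 9.26 through 9.52 to 9.85 in the Low line. The lowest arrays were alike in both lines, and the highest were Low arrays. High minus Low was -0.08 ± 0.02 (SE, n = 47 and 48; limma adjusted p = 0.0610). It was 0.00 in F2 and -0.07 in the arrays labelled HS4, neither of them called. When the outlying arrays of HS-CC were removed repeatedly until none was left, the difference was -0.06 with an adjusted p of 0.210, no longer called. Across HS-CC arrays Kcnj16 went with the spiny neuron marker mean at r = -0.36 (-0.25 without the Low array that stood apart). High minus Low of that mean was 0.02 ± 0.07 (SE). For the astrocyte and microglia marker means it was -0.04 ± 0.03 each (SE), the same direction as Kcnj16. In bulk tissue fewer cells of a type and less RNA per cell cannot be told apart. With the spiny neuron, cortical, choroid plexus and oligodendrocyte means as covariates, an alternative chosen after seeing the data, the Kcnj16 difference was -0.07 (limma adjusted p = 0.0854). Astrocyte and microglia means were not among these covariates, and the part of cell make-up in the Kcnj16 difference was not tested.

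The other Kcnj probes were not called. They included Kcnj2 and Kcnj4, strong rectifiers of the same class as Kcnj12, and Kcnj3 and Kcnj9, subunits of G-protein-gated channels. Kcnj2 had the fourth smallest p among the channel probes of F2, with a difference of -0.05 ± 0.02 (SE, n = 40 and 40; limma adjusted p = 0.512), and its group medians in F2 were both 9.17. Kcnj4 differed by -0.03 (F2), -0.02 (HS4) and 0.05 (HS-CC). Over the family 5 of 8 probes had lower means in the High line in F2, 5 of 7 in HS4 and 6 of 8 in HS-CC, and 4 to 6, 4 to 7 and 5 to 6 under other choices of arrays, normalization or covariates.

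Among the leak channels, Kcnk13, a subunit of the halothane-inhibited THIK class, ranged in HS-CC from 10.08 through 10.34 to 10.99 in the High line and from 9.93 through 10.23 to 10.71 in the Low line. The lines overlapped, with the lowest arrays Low and the highest High. High minus Low was 0.11 ± 0.04 (SE, n = 47 and 48; limma adjusted p = 0.0742), and it was 0.02 in F2 and -0.06 in the arrays labelled HS4. The call turned on a single library: with the 1 outlying HS-CC array kept, the difference was 0.08 and the adjusted p 0.420. The means of the oligodendrocyte and choroid plexus markers were also higher in the High line of HS-CC, by 0.09 ± 0.04 and 0.11 ± 0.09 (SE). Other marker means went the other way: astrocytes -0.04 ± 0.03, microglia -0.04 ± 0.03 and cortical neurons -0.05 ± 0.06 (SE). Those of spiny neurons, interneurons, endothelial and mural cells were higher by 0.02 each. The choroid plexus difference was close to its error. The oligodendrocyte mean, over 7 genes, spanned 11.75 to 13.02 in the High line and 11.64 to 12.42 in the Low line. The choroid plexus mean, over 7 genes, spanned 9.28 to 11.59 and 9.25 to 10.69. Kcnk13 went with the oligodendrocyte and choroid plexus means across HS-CC arrays at r = 0.46 and 0.40. With the same 4 covariates as for Kcnj16, the Kcnk13 difference was 0.07 with a limma adjusted p of 0.198. The part of cell make-up in the Kcnk13 difference was not tested. Without the Low array that stood apart, the differences were -0.07 for Kcnj12 (limma adjusted p = 0.0822), -0.07 for Kcnj16 (adjusted p = 0.0861) and 0.11 for Kcnk13 (adjusted p = 0.0845), all still called.

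**Figure D3:**
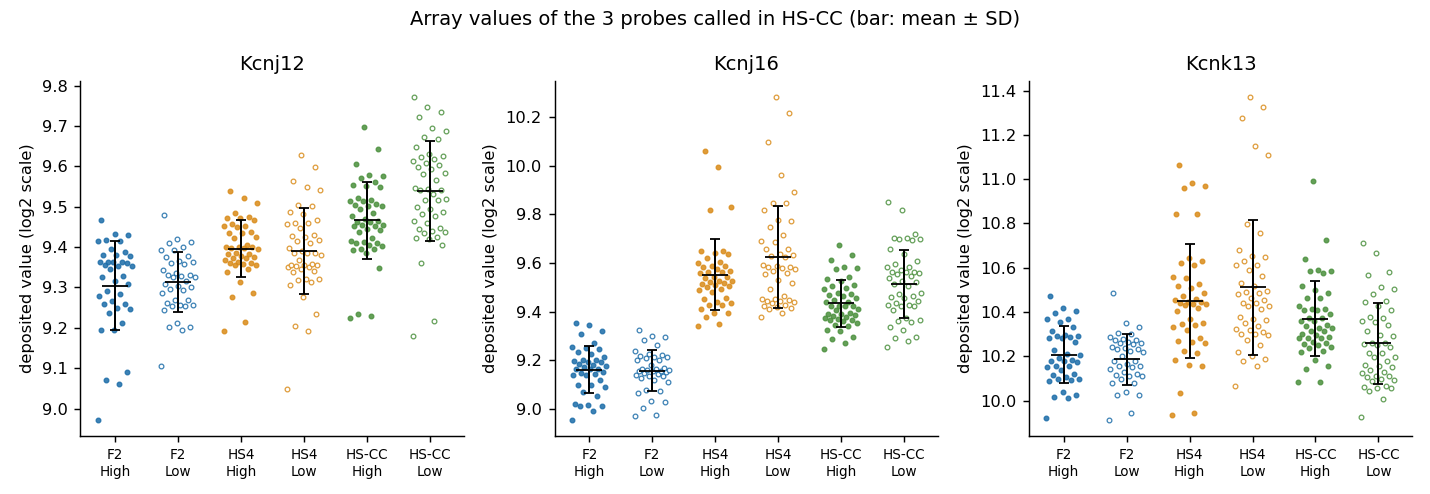
Deposited values (log2 scale, y axis) of Kcnj12, Kcnj16 and Kcnk13 on each of the 267 arrays used, by background and line (x axis); filled points are High, open points Low, and bars give the mean and SD. In HS-CC the High and Low points overlap for all 3 genes, and the means are 9.47 and 9.54 for Kcnj12, 9.43 and 9.51 for Kcnj16, and 10.37 and 10.26 for Kcnk13.

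No other Kcnk probe was called. The mechanosensitive channel Kcnk2 was measured by a pair of probes. Probe 1 gave -0.09 (F2), -0.13 (HS4) and -0.18 (HS-CC), none of which was called. Its arrays labelled HS4 ran from 11.91 through 12.97 to 13.46 in the High line and from 12.19 through 13.05 to 13.57 in the Low line, so the lines overlapped. Probe 2 of Kcnk2 gave 0.03, 0.01 and -0.03, and the probes correlated with each other at only 0.11 (F2), 0.32 (HS4) and 0.27 (HS-CC). Kcnk6, a weakly inwardly rectifying relative, had the smallest p of the HS4 channel probes. Its probe 1 gave -0.09 ± 0.04 there (SE, n = 45 and 47; limma adjusted p = 0.791), and its probe 2 gave 0.00. Kcnk12, a THIK subunit like Kcnk13, gave -0.04 ± 0.02 in HS4 (limma adjusted p = 0.791).

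The Kcna family holds low-threshold channels that delay and limit firing. None of its 6 expressed probes reached an unadjusted p of 0.05 in any background. Differences in the axonal subunits Kcna1 and Kcna2 were 0.02 and -0.05 in F2, 0.04 and 0.06 in HS4, and -0.02 and -0.04 in HS-CC. Means were higher in the arrays labelled HS4 High for 6 of 6 probes, by 0.01 to 0.07, and lower in the High line for 4 of 6 in F2 and 5 of 6 in HS-CC. Under other choices of arrays, normalization or covariates 4 to 6 were higher in HS4 and 3 to 5 lower in HS-CC. The probe medians of the family lay between 9.01 and 10.43 in F2.

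The beta subunits were measured by 5 probes, 3 of them for Kcnab1, whose protein can inactivate Kcna channels. Probe 1 of Kcnab1 ran in F2 from 12.44 through 13.15 to 13.51 in the High line and from 12.48 through 13.15 to 13.83 in the Low line. In HS-CC it ran from 11.81 through 12.92 to 13.45 and from 11.48 through 12.81 to 13.45. Its High minus Low was -0.10 in F2 (95% interval -0.22 to 0.02), 0.07 in HS4 (-0.17 to 0.31) and 0.11 in HS-CC (-0.04 to 0.26). Probe 3 gave -0.11 (F2), -0.14 (HS4) and -0.12 (HS-CC), and probe 2 gave 0.04, 0.09 and 0.01. None of these 9 differences was called, and the 3 probes did not share a sign in any background. Kcnab2 and Kcnab3, the other beta subunits, differed by 0.03 and 0.06 in F2, -0.06 and -0.002 in HS4, and -0.07 and -0.06 in HS-CC.

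The A-type channel of spiny neuron dendrites was represented by Kcnd2, its pore subunit. It ran in F2 from 11.13 to 12.45, in HS4 from 9.09 to 11.21 and in HS-CC from 10.09 to 12.55. High minus Low was -0.06 (95% interval -0.17 to 0.05) in F2, 0.10 (-0.08 to 0.29) in HS4 and -0.01 (-0.18 to 0.15) in HS-CC. Its Kcnip partners, 7 probes of 4 genes, differed by -0.001 to 0.05 in F2, by -0.02 to 0.10 in HS4 and by -0.03 to 0.03 in HS-CC, and none reached an unadjusted p of 0.05. Of these 7 probes, 6 had higher means in the High line in F2 (5 to 6 under other choices of arrays, normalization or covariates) and 6 had lower means in HS-CC (5 to 6). In HS4 5 of the 7 were higher, and 2 to 5 under other choices, so the direction turned there.

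In the Kcnq family, which carries the M-current that brakes repetitive firing, Kcnq5 had the second smallest p in F2. There it ran from 8.98 through 9.38 to 9.53 in the High line and from 9.10 through 9.43 to 9.77 in the Low line. The difference was -0.06 ± 0.03 (SE, n = 40 and 40; limma adjusted p = 0.412), and it was 0.00 in HS4 and -0.04 in HS-CC. Kcnq3, its partner, gave -0.03, 0.01 and -0.03. Of the calcium-activated SK channels, Kcnn1 gave 0.02, -0.03 and -0.05 and Kcnn2 0.00, 0.02 and 0.06 in F2, HS4 and HS-CC, with none called.

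The large-conductance calcium-activated channel joins the pore Kcnma1 to the neuronal beta subunit Kcnmb4. Kcnma1 gave 0.16 ± 0.08 in the arrays labelled HS4 (SE, n = 45 and 47; limma adjusted p = 0.791), where it ran from 9.84 through 10.82 to 11.98 in the High line and from 9.72 through 10.70 to 11.79 in the Low line. It gave -0.04 in F2 and -0.01 in HS-CC. Kcnmb4 had the smallest p in F2. Its probe 1 ran there from 10.34 through 10.70 to 11.19 in the High line and from 10.24 through 10.58 to 10.96 in the Low line. The difference was 0.11 ± 0.04 (SE, n = 40 and 40; limma adjusted p = 0.295), and probes 2 and 3 gave 0.05 and 0.07. In HS-CC the 3 probes gave -0.05, -0.02 and 0.00.

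Other leading differences were as small against their errors. Probe 2 of Kcnc4, a fast delayed rectifier, gave 0.17 ± 0.08 in F2 (SE; limma adjusted p = 0.488), where probe 1 gave 0.01. Kcnc1, of the same class, gave 0.06 in F2 with probe 2 (limma adjusted p = 0.554). In HS-CC the silent subunit Kcng4 gave -0.07 ± 0.03 (limma adjusted p = 0.163) and Kcnu1, best known from sperm, gave 0.07 ± 0.03 (limma adjusted p = 0.218). Kcne1l, a single-pass regulatory subunit, gave -0.16 ± 0.07 in HS4 (limma adjusted p = 0.791). Probe 2 of Kcnh1, an ether-à-go-go channel, gave -0.07 (F2), 0.00 (HS4) and 0.02 (HS-CC), with adjusted p between 0.614 and 0.999.

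To ask whether the lines differed more in one background than in another, the High minus Low differences were compared in 1 fit after quantile normalization of all arrays together. None of the 62 channel probes was called for any of the 3 pairs of backgrounds. Of all 13994 probes, 0.222% were called for F2 against HS4, 2.37% for F2 against HS-CC and 1.88% for HS4 against HS-CC. At an unadjusted p under 0.05 there were 1, 4 and 4 channel probes. The share of all probes at that threshold was not computed, so these counts have no rate to be set against. The nearest were for HS4 against HS-CC: Kcnu1 (difference of the differences -0.17 ± 0.05, SE, limma adjusted p = 0.112), Kcnk13 (-0.18 ± 0.06, adjusted p = 0.121) and Kcnj12 (0.09 ± 0.03, adjusted p = 0.160).

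The genes that work with these channels but bear other symbols gave no calls either. This list held 26 genes, among them Dpp6 and Dpp10, which join Kcnd channels, the Hcn pacemaker channels, and Ank3, which anchors Kcnq channels on the axon. Of the 17 genes expressed, with 30 probes in F2 and 28 in each of HS4 and HS-CC, none was called in either direction. At an unadjusted p under 0.05 there were 4 of 30, 0 of 28 and 3 of 28 probes in F2, HS4 and HS-CC. Over all expressed probes the share was 10.2%, 4.74% and 13.2%. The smallest p in F2 was that of an Ank3 probe, at -0.15 ± 0.05 (SE, limma adjusted p = 0.156), while the other Ank3 probes gave 0.01 and -0.002 there. In HS-CC a Dpp6 probe gave -0.05 ± 0.02 (SE, limma adjusted p = 0.125) and the other Dpp6 probe -0.02.

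The spread between animals differed from probe to probe. After subtracting the mean of each line, 38 of 66 channel probes in F2, 35 of 69 in HS4 and 31 of 65 in HS-CC had an SD above that of the median expressed probe. Among the most variable was probe 2 of Kcnc4, with SDs of 0.38, 0.82 and 0.33 in F2, HS4 and HS-CC, above 99.2%, 99.3% and 95.3% of all expressed probes. Probe 1 of the same gene was above only 80.2%, 53.8% and 45.4%. At the other end, Kcnk10, a stretch-sensitive leak channel, was above only 0.447% of probes in HS4, and probe 2 of Kcnk5 above 1.27% in HS-CC. Kcnk10 exceeded background on 63 of the 96 HS4 arrays and probe 2 of Kcnk5 on 32 of the 96 HS-CC arrays. Near background a small SD cannot be read as a trait of the channel. The SD of probe 1 of Kcnab1 was 0.28, 0.60 and 0.37 in F2, HS4 and HS-CC, above 96.9% or more of expressed probes in each. Probe 2 of Kcnab1 was above 77.5% in HS-CC. The median SD over channel probes was 0.14, 0.19 and 0.13, against 0.11, 0.19 and 0.14 over all expressed probes.

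Covariation was described by Pearson's r across arrays after subtracting line means, over probes of different genes; arrays of a background share 1 normalization and the animals are relatives, and no test was made. The F2 median absolute r was 0.159 (80 arrays, 2129 pairs), that of HS4 0.217 (92 arrays, 2328 pairs) and that of HS-CC 0.143 (95 arrays, 2064 pairs). Over an even grid of all expressed probes it was 0.144, 0.262 and 0.125. The order of the channel value and that of all probes depended on the arrays and the measure. With all arrays kept, the channel value was the lower one in F2 (0.168 against 0.170), HS4 (0.234 against 0.273) and HS-CC (0.151 against 0.167). By Spearman's rho it was the higher one in F2 (0.149 against 0.132), HS4 (0.182 against 0.170) and HS-CC (0.128 against 0.115). Of 1876 pairs measured in all 3 backgrounds, 525 were positive in each, 433 were negative in each and the rest changed sign. In each background r was over 0.3 for 83 pairs and under -0.3 for 33. The same counts over pairs of all expressed probes were not made, so these describe the channel pairs only.

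Within families the median r over pairs was -0.03, 0.16 and 0.06 over the 15 Kcna pairs in F2, HS4 and HS-CC, and -0.10, -0.36 and -0.27 over the 7 Kcnab pairs. It was -0.13, -0.23 and 0.02 over the 17 Kcnip pairs, 0.14, -0.12 and -0.01 over the 15 Kcnj pairs, and -0.03, -0.002 and 0.02 over the 53 Kcnk pairs. The 4 pairs of the Kcnc family were higher in HS4 and HS-CC, with medians of 0.09, 0.31 and 0.36. The M-current partners Kcnq3 and Kcnq5 gave 0.30, 0.28 and 0.41, and the SK channels Kcnn1 and Kcnn2 gave 0.14, 0.15 and 0.27. Kcnd2 was the only expressed Kcnd gene and has no pair within its family.

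The strongest shared pairs crossed families. Probe 2 of Kcnab1 went with probe 3 of Kcnip2 at 0.75 (F2), 0.91 (HS4) and 0.62 (HS-CC), with probe 1 of Kcnip2 at 0.73, 0.87 and 0.50, and with probe 2 of Kcnk2 at 0.83, 0.93 and 0.51. Probe 1 of Kcnab1 went with Kcnd2 at 0.54, 0.73 and 0.55. Kcnma1 went with probe 1 of Kcnc4 at 0.65, 0.64 and 0.59 and with Kcna2 at 0.57, 0.83 and 0.63. Kcnj4 went with probe 1 of Kcnk2 at 0.64, 0.53 and 0.67, and Kcnk3, an acid-sensitive leak channel, with probe 2 of Kcnc4 at 0.61, 0.64 and 0.52. The remaining members of the 10 leading pairs were Kcna4 with probe 3 of Kcnab1 (0.49 in each background) and probe 1 of Kcnc4 with probe 3 of Kcnmb4 (0.50, 0.55 and 0.47). Some of these values turned on the outlying HS4 arrays. With all 96 HS4 arrays kept, Kcna4 went against probe 3 of Kcnab1 at -0.28, and probe 1 of Kcnc4 went with probe 3 of Kcnmb4 at 0.13 and with Kcnma1 at 0.30. The other 7 pairs were between 0.51 and 0.84 there. In F2 the pair of Kcna4 and Kcnab1 fell to 0.30 with all arrays kept, and with outlying arrays removed repeatedly the first pair stood at 0.45 in HS-CC. That removal also took out the HS-CC Low array that stood apart, which the HS-CC values above include.

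The most negative pairs all held Kcnab1. Its probe 1 went against probe 2 of Kcnc4 at -0.81, -0.81 and -0.52, and its probe 3 against probes 1 and 2 of Kcnmb4 at -0.56, -0.57 and -0.55 and at -0.58, -0.67 and -0.54. With all HS4 arrays kept, Kcnab1 probe 3 and Kcnmb4 probe 1 were at -0.09. Within HS-CC the pair of Kcnab1 probe 1 and Kcnc4 probe 2 was at -0.29 in the High line and -0.66 in the Low line. The Low line holds the array that stood apart, and the difference was not tested. The 3 Kcnab1 probes did not follow each other equally: probes 1 and 3 correlated at 0.91, 0.58 and 0.70, probes 1 and 2 at 0.36, 0.72 and 0.62, and probes 2 and 3 at 0.23, 0.31 and 0.43. The 3 probes of Kcnip2 held together, at 0.68 to 0.93.

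RefSeq gives Kcnab1 3 start sites and Kcnip2 1 in its promoter table, build GRCm38.p6. Their promoters are shown because the probes of these genes lead the shared pairs and those of Kcnab1 differ among themselves. Each runs from 250 bases before the start site to 50 after it. Capitals mark letters that match a motif on either strand. The GC box was searched as GGGCGG. The CRE half-site was searched as TGACG. The E-box was searched as CACGTG, which reads the same on both strands. The TATA box was searched as TATAAA. None of these motifs contains another.
Kcnab1 promoter 1, chr3:64948962-64949261, plus strand: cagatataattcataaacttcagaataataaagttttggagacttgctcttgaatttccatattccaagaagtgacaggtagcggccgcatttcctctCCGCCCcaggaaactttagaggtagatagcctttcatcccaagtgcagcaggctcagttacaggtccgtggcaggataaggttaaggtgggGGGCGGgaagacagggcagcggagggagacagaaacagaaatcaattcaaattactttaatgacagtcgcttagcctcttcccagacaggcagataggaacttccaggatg
Kcnab1 promoter 2, chr3:65108764-65109063, plus strand: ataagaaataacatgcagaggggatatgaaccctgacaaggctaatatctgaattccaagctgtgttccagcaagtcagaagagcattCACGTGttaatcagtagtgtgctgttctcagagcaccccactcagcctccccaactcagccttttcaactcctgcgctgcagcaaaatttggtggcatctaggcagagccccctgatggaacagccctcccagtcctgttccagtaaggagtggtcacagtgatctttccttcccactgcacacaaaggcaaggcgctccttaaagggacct
Kcnab1 promoter 3, chr3:65187853-65188152, plus strand: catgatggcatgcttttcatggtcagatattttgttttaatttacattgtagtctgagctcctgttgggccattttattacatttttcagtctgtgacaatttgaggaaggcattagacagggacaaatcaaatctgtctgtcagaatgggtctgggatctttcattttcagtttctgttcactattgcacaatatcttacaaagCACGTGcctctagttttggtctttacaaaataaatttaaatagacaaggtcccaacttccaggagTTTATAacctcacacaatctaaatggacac
Kcnip2 promoter 1, chr19:45816014-45816313, minus strand: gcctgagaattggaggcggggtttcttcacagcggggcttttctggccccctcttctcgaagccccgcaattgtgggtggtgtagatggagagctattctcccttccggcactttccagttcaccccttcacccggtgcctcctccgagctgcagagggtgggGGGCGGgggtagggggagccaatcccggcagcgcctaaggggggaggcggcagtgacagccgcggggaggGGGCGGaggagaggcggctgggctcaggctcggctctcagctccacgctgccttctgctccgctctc
Kcnab1 promoter 1 held 2 GC boxes and promoters 2 and 3 none, while promoters 2 and 3 held 1 E-box each and promoter 3 also 1 TATA match. The Kcnip2 promoter held 2 GC boxes and 18 CG dinucleotides, against 7, 3 and 1 for Kcnab1. GC boxes were found in 35.7% of all 32851 promoters in the table and in 33 of the 66 promoters of the expressed channel genes it lists (50%), which cover 45 of the 58 genes. E-boxes were in 7.15% and 7.58%, CRE half-sites in 20.8% and 16.7%, and TATA matches in 13.6% and 4.55%. These are matches of letters in a window. Which start site each Kcnab1 probe reads was not determined.

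The pairs were next set beside marker genes of the cell types that a striatal dissection can hold, each list summarized as the mean of its markers' standardized values. Spiny neuron and cortical glutamatergic neuron means ran against each other, at r = -0.70 (F2), -0.82 (HS4) and -0.40 (HS-CC). Of the 62 channel probes, 8 (12.9%) went with the spiny neuron mean at r over 0.3 in every background and 6 (9.68%) against it at under -0.3. Of 13980 expressed probes outside that marker list, 2.99% and 3.38% did so. With the cortical mean 12 (19.4%) were over 0.3 and 2 (3.23%) under -0.3, against 3.65% and 2.06% of all probes. These shares count probes, so genes with several probes, such as Kcnab1, Kcnc4 and Kcnmb4, count more than once. The comparison was with all expressed probes and not with other neuronal genes, so the shares show no trait particular to channels.

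Probe 1 of Kcnab1 led the spiny neuron side, at 0.80 (F2), 0.83 (HS4) and 0.77 (HS-CC) (0.75 without the Low array that stood apart). Kcnd2 gave 0.69, 0.76 and 0.58 (0.48 without that array), Kcnj4 0.69, 0.81 and 0.54 (0.55), and probe 1 of Kcnk2 0.78, 0.59 and 0.53 (0.47). Probe 3 of Kcnab1, probe 3 of Kcnip2, Kcnq5 and the silent subunit Kcns2 completed the 8. By role the genes of these probes are an A-type pore and its partner, a beta subunit, a strong inward rectifier, a leak channel, an M-current pore and a silent subunit. Other probes of the same genes, probes 1 and 2 of Kcnip2, probe 2 of Kcnab1 and probe 2 of Kcnk2, were expressed in every background but were not among the 8.

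On the other side, probe 2 of Kcnc4 gave -0.86, -0.87 and -0.63 with the spiny neuron mean and 0.81, 0.86 and 0.66 with the cortical mean. The others under -0.3 with the spiny neuron mean were probe 1 of Kcnmb4, Kcnk3, Kcnab3, probe 2 of Kcng4 and probe 2 of Kcnk4, whose HS-CC value of -0.38 was -0.27 without the array that stood apart. Kcnv1, a silent subunit, had the highest value with the cortical mean by the weakest of its 3 backgrounds, at 0.71, 0.74 and 0.67. Probe 1 of Kcnc4, all 3 probes of Kcnmb4, Kcnk3, probe 2 of Kcnk4, Kcnj3, Kcnj9, Kcnab3 and Kcnf1 were also over 0.3 with that mean in every background. Probes 1 and 3 of Kcnab1 were the 2 under -0.3. With all arrays kept, 8 channel probes were over 0.3 and 4 under -0.3 with the spiny neuron mean in every background, and 11 and 2 with the cortical mean, and Kcnj3 was at -0.02 with the cortical mean in HS4. Of the 10 leading positive pairs, 4 join probes of the same side by these thresholds, and all 3 of the most negative pairs join opposite sides. The part of cell make-up in these pairs was not tested.

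**Figure D4:**
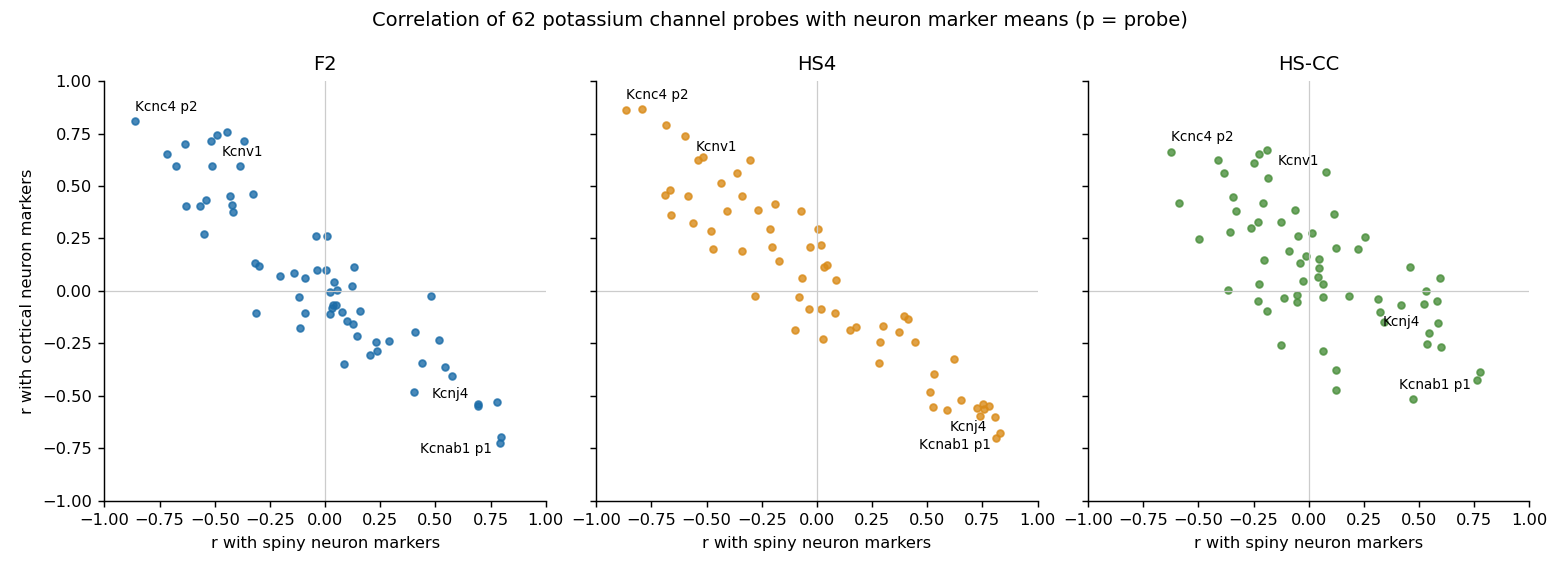
Correlation across arrays of each of the 62 potassium channel probes with the spiny neuron marker mean (x axis) and with the cortical neuron marker mean (y axis), after subtracting line means, in F2 (80 arrays), HS4 (92) and HS-CC (95); 1 point per probe. Kcnab1 probe 1 and Kcnj4 lie at the right and Kcnc4 probe 2 and Kcnv1 at the upper left in each background.

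Other cell types had fewer channel probes with them. Kcne2, a regulatory subunit known from the choroid plexus, went with the choroid plexus markers at 0.92 (F2), 0.94 (HS4) and 0.92 (HS-CC). Its values were mostly near background, with medians of 8.98, 9.21 and 9.21, and rose to 9.86, 10.91 and 10.53. The 5 arrays of each background with the highest choroid plexus means had Kcne2 at 9.21 or more in F2, 10.05 or more in HS4 and 9.60 or more in HS-CC. By ranks the correlation was 0.64, 0.60 and 0.71 after subtracting line means and standardizing the markers, and 0.59, 0.56 and 0.63 on the values as deposited, both below the Pearson values, and within the HS-CC Low line Pearson's r was 0.81. No other channel probe exceeded 0.3 with these markers in every background.
Kcne2 promoter 1, chr16:92292139-92292438, plus strand: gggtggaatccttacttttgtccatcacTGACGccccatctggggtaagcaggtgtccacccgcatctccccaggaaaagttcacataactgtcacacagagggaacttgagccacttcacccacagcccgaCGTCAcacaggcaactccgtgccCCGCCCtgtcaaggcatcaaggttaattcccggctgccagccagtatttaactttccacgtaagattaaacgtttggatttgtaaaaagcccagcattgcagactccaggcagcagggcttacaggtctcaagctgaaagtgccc
Kcne2 promoter 2, chr16:92295366-92295665, plus strand: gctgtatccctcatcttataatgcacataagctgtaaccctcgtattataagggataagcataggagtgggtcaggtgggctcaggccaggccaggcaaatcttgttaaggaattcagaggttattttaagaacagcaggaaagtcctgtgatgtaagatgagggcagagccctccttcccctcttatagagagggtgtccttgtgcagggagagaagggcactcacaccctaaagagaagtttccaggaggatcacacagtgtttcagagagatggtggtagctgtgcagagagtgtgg
These RefSeq promoters (GRCm38.p6) are shown because Kcne2 had the highest Pearson's r with a marker mean among the values given here. By ranks its correlation with the choroid plexus markers was lower, and Kcne2 rose mainly on arrays rich in those markers. Kcne2 was also the channel probe nearest to the oligodendrocyte mean, so it is not shown to follow a single cell type. With the same capitals, promoter 1 held 1 GC box and 2 CRE half-sites and promoter 2 held no match.

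Kcnip4 and Kcnj3 went against the microglia markers at -0.52, -0.69 and -0.52 and at -0.51, -0.51 and -0.50, and probe 2 of Kcnk4 did so at -0.34, -0.47 and -0.33 (-0.29 in HS-CC without the array that stood apart). These were 3 of the 62 channel probes under -0.3 in every background (4.84%), against 3.46% of 13984 expressed probes outside that marker list. The shares were close. For the remaining lists no channel probe was beyond 0.3 in every background, and none was above 0.3 with microglia in each. The nearest were Kcne1l with astrocytes (0.29, 0.32 and 0.48), Kcnv1 with striatal interneurons (0.38, 0.29 and 0.35), Kcne2 with oligodendrocytes (0.27, 0.50 and 0.46), Kcnab2 with microglia (0.21, 0.30 and 0.23), probe 1 of Kcnk2 with endothelial cells (0.23, 0.17 and 0.15) and Kcnab2 with mural cells (0.14, 0.38 and 0.17). The interneuron markers did not move together, with a median r between markers of -0.14 (F2), -0.15 (HS4) and 0.08 (HS-CC). That r was 0.09, 0.08 and 0.07 for endothelial and 0.17, 0.09 and 0.03 for mural markers. Of all expressed probes 0.358%, 0.0286% and 0.0143% were over 0.3 with these means in every background. Such means cannot show whether a channel follows those cells.

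**Figure D5:**
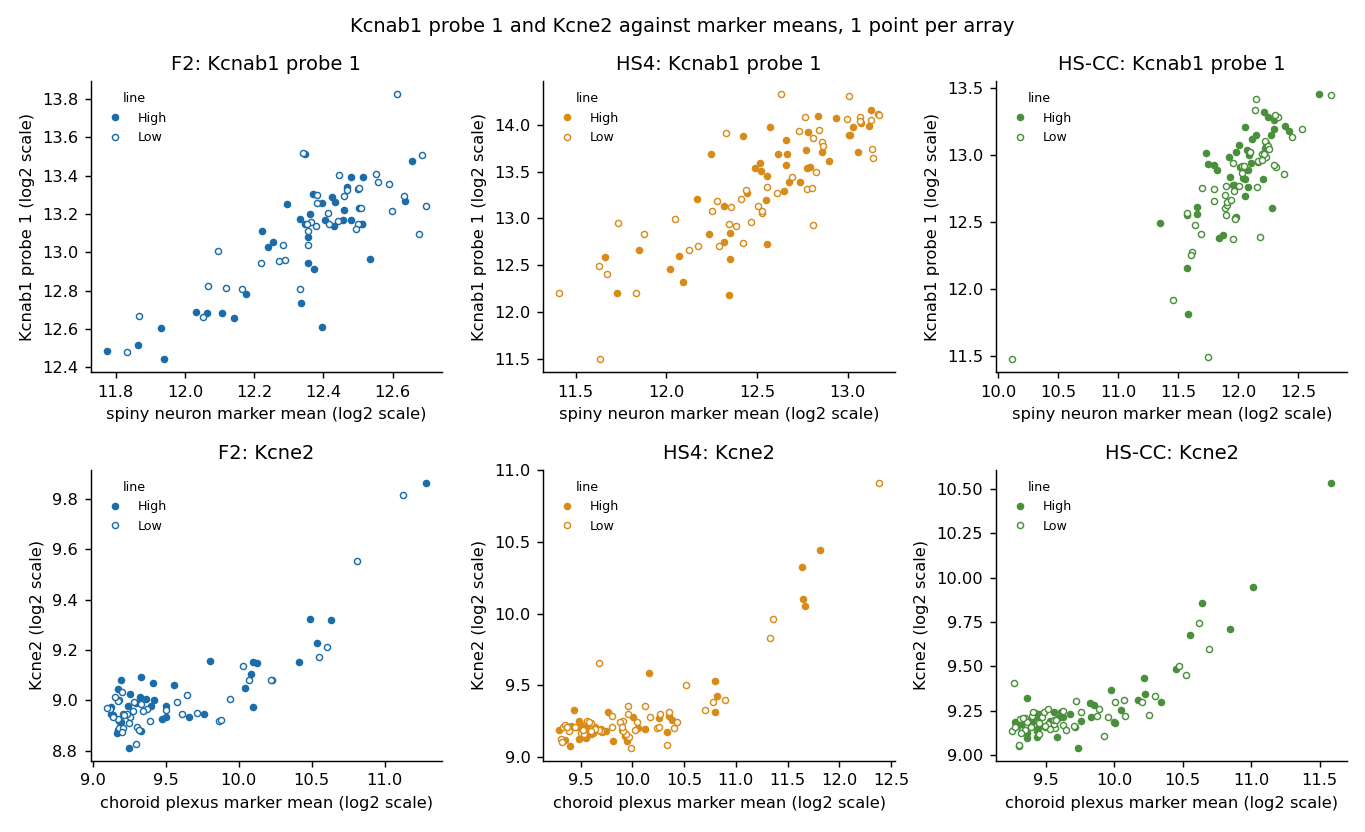
Values of Kcnab1 probe 1 against the mean of the spiny neuron markers (upper row) and of Kcne2 against the mean of the choroid plexus markers (lower row), 1 point per array, log2 scale on both axes; filled points are High and open points Low. Kcnab1 rises along the whole range of arrays, with 1 HS-CC Low array far to the left at 10.12, whereas Kcne2 stays near 9 on most arrays and rises only on those with a high choroid plexus mean.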

How the data were processed

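RNA from the striatum of 275 mice was measured on Illumina bead arrays, 1 array per animal. The authors processed the intensities with lumi (version not given in the sources used here) and deposited log2-scale values, quantile normalized within each background; the transformation within lumi is not stated, so differences are on that scale. Precision is limited by the number of arrays, and it also moved with the arrays kept: the median standard error of the HS4 channel probes was 0.052 with all 96 arrays, 0.040 with the 92 used and 0.029 with the 75 left after repeated removal of outlying arrays. Probe genes came from GEO's platform annotation, and the symbols of all 118 channel probes were found in RefSeq; 1 potassium channel gene is not reported here.

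Arrays with a mean correlation more than 2.5 SD below the mean of their background were left out, 3, 4 and 1 in F2, HS4 and HS-CC, since the study's methods removed outliers. High minus Low was tested with limma 3.58.1 in R 4.3.3 (lmFit and eBayes, two-sided) within each background. The fit was tested on simulated data. Named probes are those called, the 5 smallest p in each background, Kcnab1, Kcnh1 and Kcnk13, the leading pairs and the leading member for each marker list, with others named for their role. The members, gene lists and tests were chosen with earlier results of these data known. Alternatives covered the arrays kept, normalization, expression filter, threshold, trend, array weights, labelled family and marker means. Replicate numbers only name arrays.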

Additional observations from a re-analysis of the deposited data

How the results depend on the processing

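No channel probe was called in F2 under its 10 alternatives or in HS4 under its 11, and none differed between backgrounds under the 3 tried. In HS-CC the count of 3 became 0 when the adjustment ran over the 4572 variable probes only, or at a false discovery rate of 0.05, and was 2 to 4 otherwise. None of the 3 was among the variable probes; Kcnj12 was otherwise called except at 0.05. Kcnj16 was also lost with array weights (adjusted p = 0.109), and Kcnk13 with no filter on dim probes (adjusted p = 0.115). Kcnv1 (0.17, adjusted p = 0.00696, from 0.11 and 0.393) and Kcng4 (-0.08, adjusted p = 0.0150) were gained with marker means as covariates and Kcnu1 with array weights (0.08, adjusted p = 0.0922). Called probes over the whole array moved more: 127 to 591 in F2 against 219, 7 to 116 in HS4 against 24 and 289 to 834 in HS-CC against 687. For the differences between backgrounds they were 6 to 27 against 31, 146 to 225 against 331 and 116 to 229 against 263.

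Of 305 values of single probes under alternatives, 288 kept their direction and their side of the threshold and 7 reversed, none of them called. These were in HS4 Kcnab1 probe 1 (-0.041 with outlying arrays removed repeatedly, -0.0096 with array weights), Kcnab1 probe 2 (-0.041 and -0.051) and Kcnk13 (7.7e-05 with repeated removal), and in HS-CC Kcnab1 probe 2 (-0.013 and -0.0102). The cause was not tested. The median absolute correlation fell to 0.143 in F2 without the first principal component and to 0.182 in HS4 by Spearman's rho, and otherwise moved by less than the SD between the lines; over all probes the HS4 value went from 0.262 to 0.148 with repeated removal, below the 0.201 of channel probes. No paired analysis was possible because replicate numbers only name arrays. Probes close to the receptor probes give little room to measure a decrease.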
